A study of Mus musculus with 4 samples.

Results

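The 10 genes described here encode Toll-like receptors and the proteins that work directly with them: the receptors Tlr1, Tlr2, Tlr4, Tlr7 and Tlr9, the receptor relative Cd180, the secreted partner proteins Ly86 and Ly96, the signalling adaptor Myd88 and the receptor chaperone Unc93b1. They were chosen by name, as 10 of 31053 genes in the count matrices, and each was found there under 1 identifier. They were measured by single-cell RNA sequencing of sorted CD45+ (blood-lineage) cells from Peyer's patches, which are clusters of lymphoid tissue in the wall of the small bowel. The mice were wild-type females of Taconic stock, either colonised with segmented filamentous bacteria (SFB-positive) or free of them (SFB-negative), with 2 libraries in each group; these bacteria are commensals that attach to the gut lining. Cells of 5 mice were pooled in each group, about 6000 cells were loaded per library with the 10x Genomics 3′ v3.1 chemistry, and about 4000 were aimed for. The labels do not say whether the 2 libraries of a group came from separate pools, so p-values measure only the spread between libraries, which may be technical, and no value stands for a single mouse; the strain beyond the supplier, the age of the mice and how the SFB status was set are not in the labels.

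Toll-like receptors recognise parts of microbes. TLR1 pairs with TLR2 to bind bacterial lipoproteins at the cell surface, TLR4 binds lipopolysaccharide together with its partner MD-2 (the product of Ly96), and TLR7 and TLR9 sense single-stranded RNA and unmethylated CpG DNA inside endolysosomes, where the chaperone UNC93B1 delivers them. CD180, also called RP105, resembles TLR4 but lacks its signalling domain, is carried on B cells together with MD-1 (the product of Ly86), and modulates their response to lipopolysaccharide. MYD88 couples all 5 of the listed receptors to NF-kB signalling. In Peyer's patches, naive B cells, germinal-centre B cells, memory B cells and plasma cells stand beside T cells and rarer innate cells, and these classes are the units in which the genes are described below.

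Promoter sequences from RefSeq (assembly GRCm38.p6, 250 bases before to 50 bases after an annotated start) were matched for 6 of the 10 genes, namely Tlr1, Tlr2, Tlr9, Cd180, Ly86 and Myd88. Those of Cd180 and Ly86 are shown because these genes encode the partners of a single receptor complex and differ in how they vary among B cells, and that of Tlr9 because the gene was close to undetected in the same cells. Capitals mark every match to the 3 motifs searched on both strands: ATGCAAA (the core of the octamer bound by Oct factors), GAGGAA (a purine-rich box of the kind bound by PU.1) and GAAA followed after any 2 bases by another GAAA (a motif of interferon response elements). Bases are numbered from the start site, negative numbers lying before it.
Cd180, chr13:102693297-102693596, plus strand: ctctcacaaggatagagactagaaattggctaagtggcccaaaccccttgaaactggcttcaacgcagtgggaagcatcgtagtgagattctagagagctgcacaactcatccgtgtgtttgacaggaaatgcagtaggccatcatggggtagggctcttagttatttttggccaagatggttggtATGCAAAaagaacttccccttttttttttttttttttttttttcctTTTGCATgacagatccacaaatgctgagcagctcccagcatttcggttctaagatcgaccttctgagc
Ly86, chr13:37345095-37345394, plus strand: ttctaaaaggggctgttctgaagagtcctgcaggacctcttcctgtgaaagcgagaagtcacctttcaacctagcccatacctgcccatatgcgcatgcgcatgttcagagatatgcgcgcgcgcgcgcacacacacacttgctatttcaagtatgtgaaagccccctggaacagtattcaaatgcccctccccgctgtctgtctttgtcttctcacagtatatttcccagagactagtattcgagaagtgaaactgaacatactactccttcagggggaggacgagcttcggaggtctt
Tlr9, chr9:106222348-106222647, plus strand: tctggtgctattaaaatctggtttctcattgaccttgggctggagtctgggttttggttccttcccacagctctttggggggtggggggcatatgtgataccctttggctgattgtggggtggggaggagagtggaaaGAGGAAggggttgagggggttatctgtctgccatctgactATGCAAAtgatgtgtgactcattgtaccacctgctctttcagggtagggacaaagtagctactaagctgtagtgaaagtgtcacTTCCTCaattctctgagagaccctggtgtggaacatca

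The Cd180 promoter held the octamer core at 2 places, beginning at bases -64 and -18, the second on the opposite strand. The Tlr9 promoter held it once, at base -72, with the purine-rich box at bases -112 and 12, while the Ly86 window held none of the 3 motifs. The Myd88 promoter, on the minus strand of chr9:119339969-119340268, held the interferon response motif at base -40. One of the starts given for Tlr1 had a purine-rich box at base -23, and the Tlr2 window had no match. Of 32851 promoters of the same length, 4.63% held ATGCAAA, 28.3% held GAGGAA and 3.44% held the paired GAAA motif. The matches describe the letters in these windows and none of these data measured binding.

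The 4 matrices held between 6979187 and 83600989 UMIs (unique molecular identifiers, each standing for a captured RNA molecule) in 4031 to 12921 barcodes of at least 500 UMIs. Depth went with the replicate number: the median barcode had 1273 and 1278 UMIs in replicate 1 of the SFB-positive and SFB-negative groups, against 5786 and 2875 in replicate 2. The headers of the replicate 1 matrices name another software version than those of replicate 2, and they also hold 15 antibody tags. The submitters' cell table kept 22569 cells in 7 clusters, with a ceiling on detected genes per cell that differed between libraries (2993 and 5991 for the highest cell in the SFB-positive libraries, 2980 and 3999 in the SFB-negative ones). Of the barcode sequences, 30 were shared between the replicate 1 libraries and 40 between the replicate 2 libraries, with at most 1 in any other pair. Levels below are in CPM, UMIs per 1000000 UMIs of the class in that library, and a 3′ count holds about 1 UMI per captured molecule whatever the transcript's length, so levels of different genes also depend on how well each 3′ end was captured and are not ranked against each other.

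Clusters were checked against marker genes. The summed level of 6 B-lineage markers was 2867 to 8165 CPM across clusters 0, 1, 2, 3, 4 and 6 in the 4 libraries, and the table holds B-lineage cells. Clusters 0 and 1 were naive-like, cluster 3 germinal-centre-like (6 germinal-centre markers summed to 1177 and 1499 CPM in SFB-positive and 1300 and 1142 CPM in SFB-negative libraries), cluster 4 memory-like and cluster 6 plasma-like. Cluster 2 stays without a cell type name, and cluster 5 is a low-depth germinal-centre-like cluster with 209 cells in SFB-positive and 258 in SFB-negative replicate 2, but 0 and 1 cells in the replicate 1 libraries. Barcodes outside the table with under 10% mitochondrial UMIs were grouped here without using the 10 genes: T-lineage-like barcodes numbered 309 and 1245 in SFB-positive and 287 and 1059 in SFB-negative libraries, and B-lineage-like ones 109 and 757 against 98 and 2085. The T-lineage-like class joins 16 rebuilt clusters in which T-lineage markers summed to 1644 to 11272 CPM, and 3 of them also carried raised markers of natural killer cells or type 1 innate lymphoid cells: rebuilt cluster 5 (58 barcodes, led by Klra4 and Xcl1), rebuilt cluster 8 (16 barcodes, with Calca and Il13 among its leading genes) and rebuilt cluster 12 (86 barcodes, led by Gzma and Gzmb). Differences between clusters are given as descriptions without a test, because the table's clustering used the expression of all genes.

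Ly86 and Cd180, the partner and the receptor of the RP105 complex, marked the B lineage in different ways. Ly86 (chr13:37345208-37419036, plus strand, GRCm38 annotation) stood at 488 and 326 CPM in naive-like cluster 0 of the SFB-positive libraries, against 448 and 228 CPM in the SFB-negative ones. In memory-like cluster 4 it was at 598 and 448 CPM in SFB-positive and 569 and 353 CPM in SFB-negative libraries, 1.23, 1.37, 1.27 and 1.55 times the cluster 0 level of the same library. In germinal-centre-like cluster 3 it was at 270 and 188 CPM in SFB-positive and 283 and 150 CPM in SFB-negative libraries, 0.554, 0.577, 0.632 and 0.659 times cluster 0. Among clusters 0 to 4, cluster 4 was the highest and cluster 3 the lowest in each of the 4 libraries, with clusters 1 and 2 between them and in no fixed order. Levels in replicate 1 lay above those in replicate 2 of the same group in each of clusters 0 to 4.

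In plasma-like cluster 6, Ly86 was at 28.4 CPM (5 UMIs) and 24.5 CPM (38 UMIs) in the SFB-positive libraries, against 0 and 87.7 CPM (28 UMIs) in the SFB-negative ones. These are 17.2-fold and 13.3-fold below cluster 0 in the SFB-positive libraries, and at least 6.46-fold (taking 3 UMIs as the floor) and 2.60-fold below it in the SFB-negative ones, from as few as 24 and 6 cells in the replicate 1 libraries. Plasma-like cells thus had the lowest Ly86 of the table's clusters in each library. Within germinal-centre-like cluster 3, cells were split by the antibody heavy-chain gene with the most UMIs. Ly86 was at 375 and 247 CPM in IgM or IgD cells of the SFB-positive libraries and 301 and 200 CPM in those of the SFB-negative libraries, against 156 and 125 CPM in IgG1 cells of SFB-positive and 255 and 135 CPM in those of SFB-negative libraries. IgA cells lay at 259 and 175 CPM in SFB-positive and 249 and 143 CPM in SFB-negative libraries, so unswitched cells were the higher in each library. IgG2b cells were at 195 and 182 CPM against 329 and 142 CPM, below the IgM or IgD cells in 3 of the 4 libraries. The IgM or IgD cells also carried more of 5 naive markers (Ighd left out), at 627 and 560 CPM in SFB-positive and 575 and 545 CPM in SFB-negative libraries, than IgG1 cells with 343 and 157 CPM and 462 and 236 CPM; their part in the Ly86 levels was not tested.

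Cd180 (chr13:102693558-102739629, plus strand, overlapped on the other strand by Mast4, which makes its count uncertain where strand was not used in counting) showed no such drop between cluster 0 and germinal-centre-like cells. It was at 94.0 and 146 CPM in cluster 3 of the SFB-positive libraries and 125 and 103 CPM in the SFB-negative ones, against 76.8 and 79.5 CPM and 104 and 65.8 CPM in cluster 0. The ratio of cluster 3 to cluster 0 within a library was 1.22 and 1.84 in the SFB-positive and 1.20 and 1.56 in the SFB-negative libraries. Cluster 1, the other naive-like cluster, stood above cluster 0 in each library too, at 103 and 115 CPM in SFB-positive and 129 and 102 CPM in SFB-negative libraries. Plasma-like cluster 6 had 22.7 CPM (4 UMIs) and 20.6 CPM (32 UMIs) in SFB-positive and 23.1 CPM (1 UMI) and 37.6 CPM (12 UMIs) in SFB-negative libraries, below the other clusters in every library. The Cd180 ratios of replicate 1, 1.22 in SFB-positive and 1.20 in SFB-negative, were close to 1 and are given without counting intervals. By point value, the complex's receptor and its partner ran in opposite directions between clusters 0 and 3 in 4 of 4 libraries. Against naive-like cluster 1 this did not hold, since Cd180 in cluster 3 was below cluster 1 in both replicate 1 libraries and above or level with it in the replicate 2 libraries. Both genes were lowest in plasma-like cells.

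**Figure D1:**
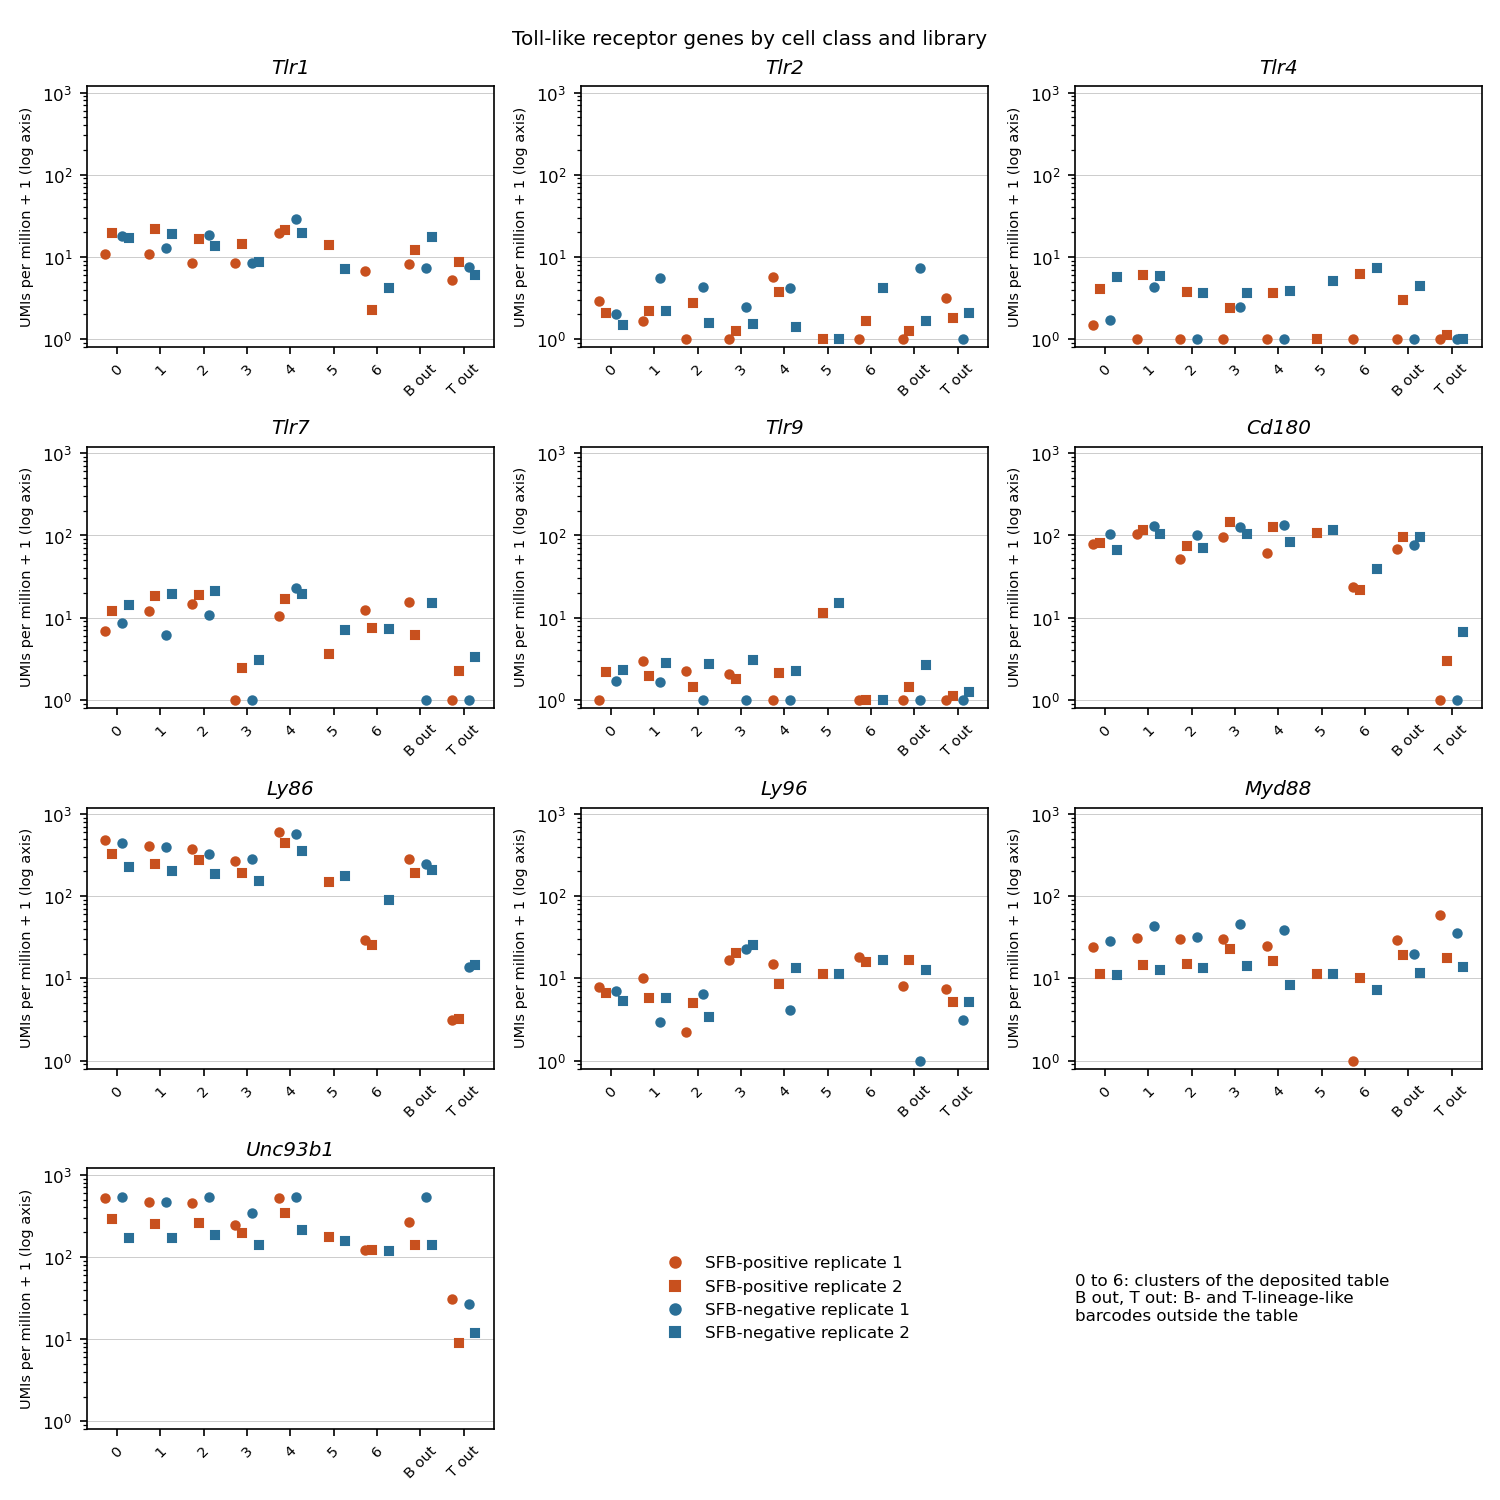
Level of each of the 10 genes by class and library, in CPM plus 1 on a log axis; orange marks SFB-positive and blue SFB-negative libraries, circles replicate 1 and squares replicate 2, and a missing point is a class with fewer than 20 cells in that library. Ly86, Cd180 and Unc93b1 lie far above their T-lineage-like level in clusters 0 to 4, Tlr7 drops in cluster 3 and Ly96 is highest there among clusters 0 to 4.

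Unc93b1 (chr19:3935186-3949340, plus strand), the escort of the nucleic-acid-sensing receptors, followed Ly86 more than it followed Tlr7 or Tlr9. It was at 515 and 289 CPM in cluster 0 of the SFB-positive libraries, against 542 and 171 CPM in the SFB-negative ones. Memory-like cluster 4 held 521 and 346 CPM in SFB-positive and 538 and 212 CPM in SFB-negative libraries, and cluster 3 held 247 and 197 CPM in SFB-positive and 340 and 137 CPM in SFB-negative libraries. Cluster 3 was the lowest of clusters 0 to 4 in each library, at 0.480 and 0.682 times cluster 0 in SFB-positive and 0.628 and 0.803 times in SFB-negative libraries. As for Ly86, replicate 1 lay above replicate 2 of the same group in each of clusters 0 to 4. Plasma-like cells kept 119 CPM (21 UMIs) and 120 CPM (186 UMIs) in SFB-positive libraries, against 23.1 CPM (1 UMI) and 116 CPM (37 UMIs) in SFB-negative ones. In T-lineage-like barcodes it was far lower, with 29.7 and 7.88 CPM in SFB-positive and 25.9 and 11.0 CPM in SFB-negative libraries.

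Tlr7 (chrX:167304929-167330558, minus strand), the single-stranded RNA sensor, was low in B cells and close to absent from germinal-centre-like ones. Cluster 0 had 5.83 CPM (12 UMIs) and 11.1 CPM (147 UMIs) in the SFB-positive libraries, against 7.70 CPM (22 UMIs) and 13.4 CPM (164 UMIs) in the SFB-negative ones. Clusters 1, 2 and 4 ranged from 5.23 to 22.0 CPM over the 4 libraries. Cluster 3 held no Tlr7 UMI in either replicate 1 library, and 1.42 CPM (21 UMIs) in SFB-positive replicate 2 against 2.08 CPM (12 UMIs) in SFB-negative replicate 2. Within replicate 2 this was 7.81-fold below cluster 0 in the SFB-positive library (ratio 0.128, 95% counting interval 0.077 to 0.203) and 6.46-fold below it in the SFB-negative one (ratio 0.155, 0.078 to 0.278). In replicate 1 it was at least 1.84-fold lower in the SFB-positive and at least 1.75-fold lower in the SFB-negative library, taking 3 UMIs as the floor. The cluster 3 cells were deeper than those of cluster 0, with a median of 17122 UMIs in SFB-positive and 7359 in SFB-negative replicate 2 against 5249 and 2962 in cluster 0, so the cells with little Tlr7 were the deeper ones.

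T-lineage-like barcodes served as a comparison outside the B lineage. They held Tlr7 at 0 and 1.28 CPM (11 UMIs) in SFB-positive and 0 and 2.37 CPM (9 UMIs) in SFB-negative libraries. How much of this was free RNA in the droplets was not tested. The level over all cluster 3 cells was near that of T-lineage-like barcodes, and no expression above theirs can be read from it. With every cell thinned to 500 UMIs, 0.0557% of cluster 3 cells in SFB-positive and 0.101% in SFB-negative replicate 2 had a Tlr7 UMI. The matching shares were 0.544% and 0.615% in cluster 0 and 0.0835% and 0.159% in T-lineage-like barcodes. Among cluster 3 cells of replicate 2, those with IgM or IgD as the leading heavy chain held 11 of the 21 UMIs in the SFB-positive library (3.78 CPM) and 9 of the 12 in the SFB-negative one (7.07 CPM). IgA cells held 1.13 CPM in the SFB-positive library, with 6 of their 8 UMIs in 1 cell, and IgG1 cells 1.15 CPM (1 UMI) and 0.598 CPM (2 UMIs). The IgM or IgD cells thus lay above the T-lineage-like level of their own library, with counting intervals that overlap (1.89 to 6.76 CPM against 0.637 to 2.28 CPM in the SFB-positive library, and 3.23 to 13.4 CPM against 1.08 to 4.49 CPM in the SFB-negative one). They also held the most of the 5 naive markers in replicate 2, at 560 CPM in the SFB-positive library beside 157 to 244 CPM in the other 3 isotypes, and at 545 CPM in the SFB-negative library beside 236 to 320 CPM, and the part of those markers in the Tlr7 level was not tested.

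Ly96 (chr1:16688051-16709611, plus strand), the lipopolysaccharide-binding partner of TLR4, had the opposite pattern to Tlr7. It was at 6.81 CPM (14 UMIs) and 5.72 CPM (76 UMIs) in cluster 0 of the SFB-positive libraries and 5.95 CPM (17 UMIs) and 4.34 CPM (53 UMIs) in the SFB-negative ones. In germinal-centre-like cluster 3 it reached 15.8 CPM (15 UMIs) and 19.2 CPM (284 UMIs) in SFB-positive libraries, against 22.0 CPM (15 UMIs) and 24.2 CPM (140 UMIs) in SFB-negative ones. The ratio of cluster 3 to cluster 0 was 2.33 (95% counting interval 1.05 to 5.20) and 3.35 (2.59 to 4.38) in the SFB-positive libraries, and 3.70 (1.72 to 7.87) and 5.59 (4.05 to 7.82) in the SFB-negative ones. Ly96 was therefore higher in germinal-centre-like than in naive-like cluster 0 cells in 4 of 4 libraries, with each counting interval above 1. In T-lineage-like barcodes it was at 6.37 and 4.17 CPM in SFB-positive and 2.16 and 4.21 CPM in SFB-negative libraries. Levels in clusters 0, 1 and 2 (1.22 to 9.11 CPM) ranged around these values, and cluster 3 lay above them. Memory-like cluster 4 varied between libraries. On the scale of the fits below, which removes a shift common to most genes, its Ly96 was 15.4 and 6.46 in SFB-positive libraries. In the SFB-negative ones it was 3.31 and 13.1. Cluster 3 was at 16.4 and 17.5, and at 22.0 and 26.2, on that scale. Whether the T-lineage-like level was free RNA was not tested.

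In replicate 2, Ly96 was spread over the isotypes of cluster 3. IgM or IgD cells were at 17.9 CPM in the SFB-positive and 22.0 CPM in the SFB-negative library, IgG1 cells at 17.2 and 25.4 CPM, IgG2b cells at 20.8 and 21.9 CPM, and IgA cells at 19.1 and 18.8 CPM. None of the isotypes stood apart, unlike for Tlr7. Thinned to 500 UMIs per cell, the share of cluster 3 cells with a Ly96 UMI was 0.895% and 0.967% in SFB-positive and 1.46% and 1.26% in SFB-negative libraries, against 0.292% and 0.275% and 0.313% and 0.214% in cluster 0.

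**Figure D2:**
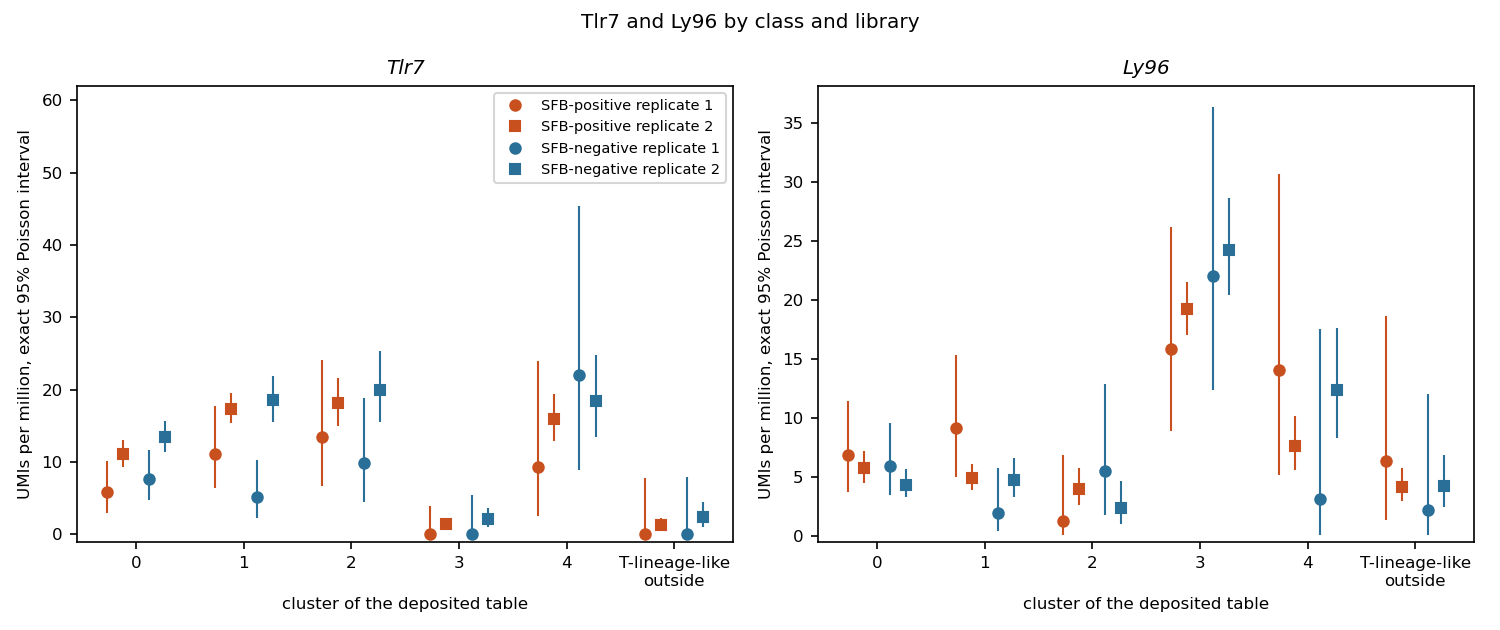
Tlr7 (left) and Ly96 (right) in clusters 0 to 4 and in T-lineage-like barcodes, in CPM with exact 95% Poisson intervals that cover counting error only; orange marks SFB-positive and blue SFB-negative libraries, circles replicate 1 and squares replicate 2. In cluster 3 Tlr7 is near the T-lineage-like level, at 1.42 and 2.08 CPM in the replicate 2 libraries, and Ly96 lies between 15.8 and 24.2 in all 4.

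The partner receptor of MD-2 did not follow it. Tlr4 (chr4:66827584-66930284, plus strand) had 1 and 189 UMIs (0.168 and 3.17 CPM) over all table cells of the SFB-positive libraries, against 8 and 130 UMIs (1.26 and 4.03 CPM) of the SFB-negative ones. In cluster 3 of replicate 2 it was at 1.42 CPM in the SFB-positive and 2.60 CPM in the SFB-negative library, below the 3.09 and 4.75 CPM of cluster 0. T-lineage-like barcodes held 1 Tlr4 UMI in all, at 0.116 CPM of SFB-positive replicate 2. The low B-cell level of the replicate 2 libraries thus lay above that of T-lineage-like barcodes.

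The surface receptors for lipoproteins were unequal. Tlr1 (chr5:64924679-64933563, minus strand) was at 9.56 and 17.1 CPM over all table cells of the SFB-positive libraries and 15.1 and 14.4 CPM of the SFB-negative ones. Its highest cluster was memory-like cluster 4, with 18.8 CPM (8 UMIs) and 20.3 CPM (125 UMIs) in SFB-positive and 28.3 CPM (9 UMIs) and 18.5 CPM (45 UMIs) in SFB-negative libraries. In SFB-positive replicate 2 cluster 1 was slightly higher, at 20.6 CPM, so that order did not hold in every library. Cluster 3 stood at 7.39 and 13.3 CPM in SFB-positive and 7.33 and 7.79 CPM in SFB-negative libraries, below cluster 0 in each, while T-lineage-like barcodes held 4.24 and 7.65 CPM and 6.47 and 4.99 CPM. Tlr2 (chr3:83836272-83841767, minus strand), with which TLR1 pairs, gave 7 and 68 UMIs over all table cells of the SFB-positive libraries (1.17 and 1.14 CPM) and 15 and 22 UMIs of the SFB-negative ones (2.37 and 0.682 CPM). T-lineage-like barcodes had Tlr2 at 2.12 and 0.812 CPM in SFB-positive and 0 and 1.05 CPM in SFB-negative libraries. Its level over all table cells was not clearly above theirs. In memory-like cluster 4 it was at 4.69 CPM (2 UMIs) and 2.76 CPM (17 UMIs) in SFB-positive and 3.14 CPM (1 UMI) and 0.411 CPM (1 UMI) in SFB-negative libraries, and of these only the SFB-positive replicate 2 value rests on more than 2 UMIs. Its exact 95% interval of 1.61 to 4.42 CPM lay above the 0.812 CPM of T-lineage-like barcodes of that library. That point value has counting error of its own, so the levels are not shown to differ.

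Tlr9 (chr9:106222598-106226883, plus strand), the CpG DNA sensor, was close to undetected by this chemistry in B cells. Over all table cells it gave 5 and 58 UMIs in the SFB-positive libraries (0.839 and 0.973 CPM), against 3 and 58 UMIs in the SFB-negative ones (0.473 and 1.80 CPM). T-lineage-like barcodes held 1 Tlr9 UMI in each replicate 2 library, at 0.116 CPM in the SFB-positive and 0.263 CPM in the SFB-negative one. Low-depth cluster 5 was the exception, with 10.4 CPM from 4 UMIs in SFB-positive and 14.2 CPM from 7 UMIs in SFB-negative replicate 2, in cells with a median of 1115 and 1288.5 UMIs. So few UMIs leave wide counting error, and that cluster has no replicate 1 library to compare.

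Myd88 (chr9:119335934-119341411, minus strand, overlapped by Slc22a14 on the same strand and Acaa1a on the other, which makes its count uncertain) was as high in T-lineage-like barcodes as in B cells. It stood at 26.0 and 15.1 CPM over all table cells of the SFB-positive libraries and 33.9 and 11.0 CPM of the SFB-negative ones. T-lineage-like barcodes had 57.3 and 16.7 CPM in SFB-positive and 34.5 and 12.6 CPM in SFB-negative libraries, so Myd88 was no lower there than in B cells in any of the 4. In germinal-centre-like cluster 3 it was at 29.6 and 21.9 CPM in SFB-positive and 45.5 and 13.3 CPM in SFB-negative libraries, above cluster 0 (22.8 and 10.5 CPM, and 27.7 and 9.98 CPM) in each library.

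Outside the B and T lineages the counts were small. ILC3-like barcodes (group 3 innate lymphoid cells) numbered 16 and 52 in SFB-positive and 46 and 131 in SFB-negative libraries, and no other class had more than 6 in a replicate 1 library. They held Ly86 at 164 CPM (6 UMIs) and 63.0 CPM (28 UMIs, 11 of them in 1 barcode) in SFB-positive and 111 CPM (10 UMIs) and 63.4 CPM (34 UMIs) in SFB-negative libraries. The plasmacytoid dendritic-like barcodes, only 7 in SFB-positive and 12 in SFB-negative replicate 2, carried Tlr7 at 254 CPM (26 UMIs) and 92.5 CPM (6 UMIs). They also carried Unc93b1 at 439 CPM (45 UMIs) in the SFB-positive and 570 CPM (37 UMIs) in the SFB-negative library, while no Tlr9 UMI was found in them. Antibody genes led that cluster beside its plasmacytoid markers. Tlr2 was highest in a cycling cluster with monocyte markers, at 47.2 CPM (19 UMIs) in SFB-positive and 22.2 CPM (4 UMIs) in SFB-negative replicate 2, where Tlr7 was at 32.3 and 77.6 CPM. Conventional dendritic-like barcodes held Ly86 at 213 CPM (208 UMIs) in SFB-positive and 236 CPM (123 UMIs) in SFB-negative replicate 2, and macrophage-like ones at 278 CPM (17 UMIs) and 296 CPM (21 UMIs), so Ly86 UMIs were not confined to B-lineage barcodes. These barcodes also held the B-lineage markers. They summed to 492 and 913 CPM in ILC3-like rebuilt clusters 4 and 20, 375 CPM in conventional dendritic-like and 1880 CPM in macrophage-like barcodes. The part of B-cell RNA in these Ly86 levels was not tested.

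The comparison the study was built on asks how SFB colonisation altered these cells, and for the 10 genes no member passed the test in a B-lineage class. UMIs were summed per library and class, and edgeR's quasi-likelihood test compared the SFB-positive with the SFB-negative libraries over all genes of a class, with Benjamini-Hochberg adjustment and a limit of 0.05; differences are log2 of SFB-positive minus SFB-negative. Over all table cells, 0 of the 10 genes passed, beside 0% of all genes tested. None had an unadjusted p under 0.05, and DESeq2 called none of the 10 either. The same fit called 0 of 8 members that passed the filter on low counts in cluster 0, 0 of 8 in cluster 1, 0 of 6 in cluster 2, 0 of 6 in cluster 3 and 0 of 7 in cluster 4. Outside the table it called 0 of 7 in B-lineage-like, 0 of 4 in T-lineage-like and 0 of 8 among all barcodes with under 10% mitochondrial UMIs, again beside 0% of all genes in each class. Of these tests, only Ly86 in T-lineage-like barcodes had an unadjusted p under 0.05, and DESeq2 called no member in any class.

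Because depth, software version and antibody tags all went with the replicate number, the comparison was repeated with that number as a term, which sets each SFB-positive library against the SFB-negative library of the same number. This fit called 3.61% of all genes over all table cells and 0 of the 10 members. It called 2.16% of genes and 0 of 8 members in cluster 0, 0.981% and 0 of 8 in cluster 1, 1.14% and 0 of 6 in cluster 2, 1.35% and 0 of 6 in cluster 3, and 1.53% and 0 of 7 in cluster 4. Outside the table it called 5.17% of genes and 0 of 7 members in B-lineage-like barcodes, 2.74% and 1 of 4 in T-lineage-like barcodes, and 3.25% and 0 of 8 among all outside barcodes with under 10% mitochondrial UMIs. With counts this small against shares this low, 0 calls among the members was near the background of all genes in each class of the table. Members that missed the low-count filter, such as Tlr2 and Tlr9 in each single cluster, had no test there.

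The intervals show what the B-cell comparison could and could not see. With the replicate number as a term, the difference in naive-like cluster 0 was 0.17 for Ly86 (95% interval -0.38 to 0.71), 0.19 for Unc93b1 (-0.36 to 0.74), -0.22 for Cd180 (-0.72 to 0.27) and -0.55 for Tlr7 (-1.15 to 0.05). In germinal-centre-like cluster 3 it was 0.03 for Ly86 (-0.58 to 0.65), -0.01 for Cd180 (-0.60 to 0.58), -0.05 for Unc93b1 (-0.67 to 0.57) and -0.54 for Ly96 (-1.19 to 0.10). In memory-like cluster 4 it was 0.07 for Ly86 (-0.49 to 0.63) and -0.64 for Tlr7 (-1.39 to 0.11). With the term, the intervals of Ly86, Cd180 and Unc93b1 in these clusters thus reach less than 0.8 from 0 on the log2 scale, while those of Tlr7 in clusters 0 and 4 and of Ly96 in cluster 3 leave room for a change past 1 downwards. Without it the intervals were far wider, in cluster 0 from -1.62 to 1.93 for Ly86, -2.05 to 2.20 for Unc93b1 and -1.60 to 1.08 for Cd180, and the labels do not say that the numbers pair the libraries. The median difference over the members was -0.16 beside -0.02 for all genes in all table cells, -0.24 beside -0.01 in cluster 0, and 0.01 beside 0.09 in cluster 3.

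Tlr4, Cd180 and Tlr7 each reached an unadjusted p under 0.05 in 1 class with the replicate number as a term and missed the adjusted limit. Tlr4 over all table cells differed by -0.91 (SE 0.43, edgeR adjusted p = 0.358), with 0.168 and 3.17 CPM in SFB-positive and 1.26 and 4.03 CPM in SFB-negative libraries, so the SFB-positive library was lower within both numbers but the groups overlapped. Cd180 in cluster 2 differed by -0.56 (SE 0.28, edgeR adjusted p = 0.646), with 51.4 and 74.1 CPM in SFB-positive and 101 and 70.0 CPM in SFB-negative libraries. On the fit's own scale, which removes a shift common to most genes, these were 54.6 and 62.4 against 107 and 75.6, lower in SFB-positive within both numbers. Tlr7 in B-lineage-like barcodes outside the table differed by -1.17 (SE 0.58, edgeR adjusted p = 0.285), but went opposite ways within the numbers, with 14.3 CPM (4 UMIs) and 5.14 CPM (61 UMIs) in SFB-positive against 0 and 13.9 CPM (102 UMIs) in SFB-negative libraries. Those outside barcodes also held T-lineage markers, at 1035 and 287 CPM in SFB-positive and 2353 and 300 CPM in SFB-negative libraries, and their part in the result was not tested.

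Raw CPM of replicate 2 carried a shift that touched most genes. Over all table cells the median gene was 0.29 higher in log2 CPM in SFB-positive than in SFB-negative replicate 2, and by 0.20 to 0.38 in clusters 0 to 4, while within replicate 1 the median was near 0. Ly86, at 267 CPM in SFB-positive against 210 CPM in SFB-negative replicate 2 over all table cells, stood at 220 against 217 on the fit's scale. Unc93b1 stood at 477 and 208 in SFB-positive against 544 and 174 in SFB-negative libraries on that scale, lower in SFB-positive within number 1 and higher within number 2. The exact two-sided permutation test of 2 against 2 libraries cannot give a p below 0.333, so group means of single genes carry no p here.

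**Figure D3:**
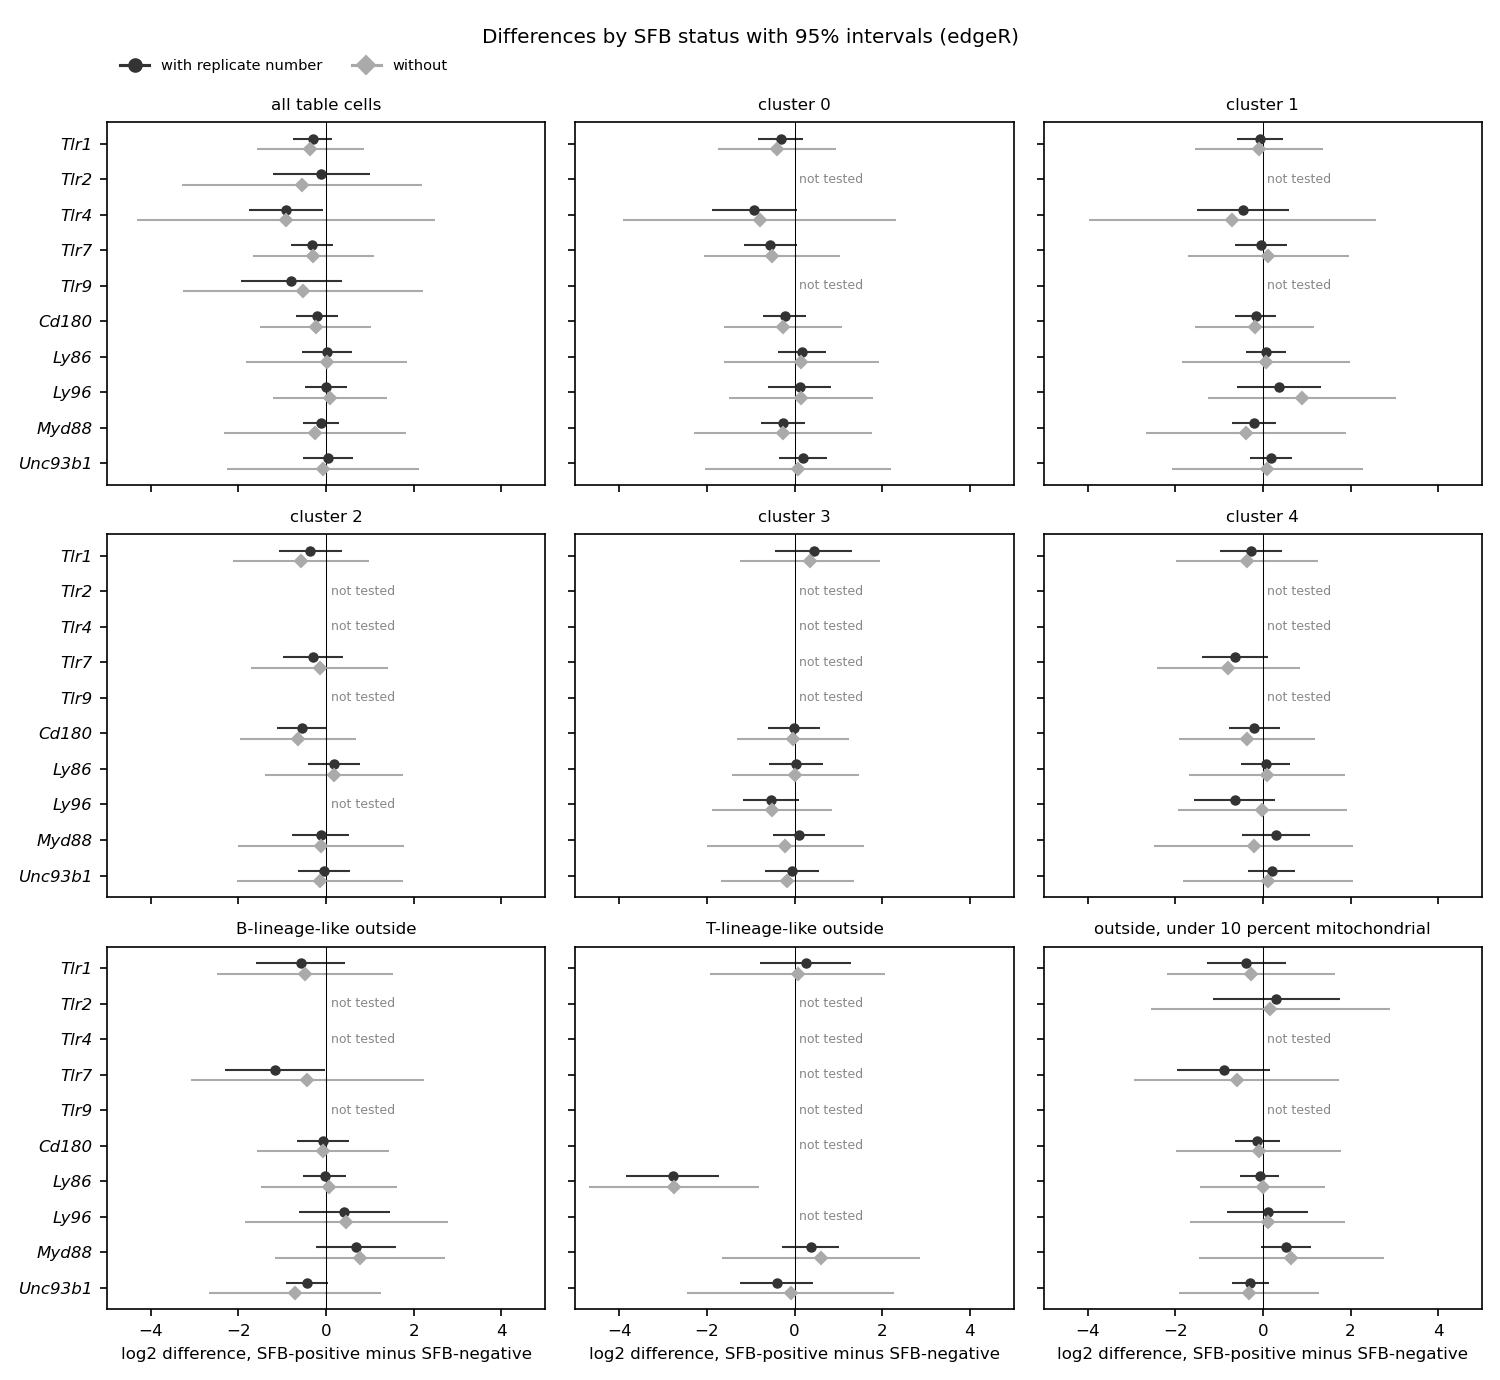
Difference of each gene between SFB-positive and SFB-negative libraries by class, as log2 SFB-positive minus SFB-negative with 95% intervals; black circles are edgeR fits with the replicate number as a term, grey diamonds fits without it, and genes under the low-count filter are written as not tested. Ly86 in T-lineage-like barcodes, at -2.78 with the term and -2.75 without it, stands apart from the other differences.

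The call among the members was Ly86 in T-lineage-like barcodes, a class that carries little of it. SFB-positive libraries held 1 and 19 Ly86 UMIs (2.12 and 2.20 CPM) in 309 and 1245 barcodes, and SFB-negative libraries held 6 and 51 UMIs (12.9 and 13.4 CPM) in 287 and 1059. Ly86 averaged 2.16 ± 0.057 CPM in SFB-positive and 13.2 ± 0.333 CPM in SFB-negative libraries (SD, n = 2 each). With 1 and 6 UMIs behind the replicate 1 values, these SDs understate the counting error. The test with the replicate number as a term called 2.74% of all genes in this class. With the replicate number as a term the difference was -2.78 (SE 0.54, 95% interval -3.83 to -1.73, edgeR adjusted p = 3.71e-05), and lower in SFB-positive within both numbers. Without the term it was -2.75 (SE 0.80, -4.69 to -0.80), with an unadjusted edgeR p of 0.0134 and an adjusted p of 1, and DESeq2 gave -2.67 with an unadjusted p of 0.0531. The T-lineage-like class was rebuilt here, so the call rests on that grouping and on few UMIs. Thinned to 500 UMIs, 0.118% and 0.107% of the barcodes in SFB-positive and 0.777% and 0.726% in SFB-negative libraries had a Ly86 UMI.

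Within replicate 2 the T-lineage-like barcodes of the groups fell largely into different rebuilt clusters. Rebuilt clusters 13, 14, 16, 17 and 18 held 1082 of the 1245 in the SFB-positive library and 36 of the 1059 in the SFB-negative one, and rebuilt clusters 10, 15, 21 and 22 held 56 and 873. The part of that split in the Ly86 result was not tested. In the 6 rebuilt T-lineage-like clusters with at least 20 barcodes in both libraries of a number, which share those libraries, the SFB-positive library had the lower Ly86 CPM each time, but on few UMIs: 0 against 1 and 1 against 5 in rebuilt clusters 0 and 1 of replicate 1, and 1 against 4, 4 against 15, 0 against 8 and 1 against 4 in rebuilt clusters 10, 12, 15 and 19 of replicate 2. Rebuilt cluster 12, led by Gzma and Gzmb (granzyme genes), had the most, at 13.7 CPM (4 UMIs) in SFB-positive and 64.7 CPM (15 UMIs) in SFB-negative replicate 2, and also the most B-lineage marker UMIs, at 717 and 1216 CPM. These markers were also lower in SFB-positive in rebuilt clusters 1 (128 against 201 CPM) and 10 (49.7 against 229 CPM). The same held in rebuilt clusters 15 (245 against 416 CPM) and 19 (152 against 285 CPM). In rebuilt cluster 0 they were higher in SFB-positive, at 212 against 161 CPM. Without rebuilt clusters 5, 8 and 12, a choice made after seeing the data, Ly86 was at 2.15 and 1.83 CPM in SFB-positive and 14.6 and 9.65 CPM in SFB-negative libraries. It then differed by -2.62 with the replicate number as a term (SE 0.59, edgeR adjusted p = 0.00116) and by -2.77 without it (SE 0.89, adjusted p = 1).

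Ly86 in this class was 148-fold below cluster 0 in SFB-positive replicate 2, against 34.6-fold and 17.0-fold below it in the SFB-negative libraries. Markers of other cells moved only in part with it. The 6 B-lineage markers summed to 197 CPM (5 of 6 detected) and 105 CPM in the T-lineage-like barcodes of SFB-positive libraries, against 181 and 285 CPM in the SFB-negative ones, so they were lower in SFB-positive within number 2 but not within number 1. Per 100 UMIs of these markers there were 1.08 and 2.10 Ly86 UMIs in the SFB-positive libraries (95% exact intervals 0.0269 to 6.14 and 1.26 to 3.29), against 7.14 (2.55 to 16.2) and 4.70 (3.48 to 6.23) in the SFB-negative ones. In cluster 0 the same ratio was 6.53 and 4.18 in SFB-positive and 5.48 and 3.75 in SFB-negative libraries. In SFB-positive replicate 1 the ratio rests on 1 Ly86 UMI. Its interval, ending at 6.14, lay below the 6.53 of cluster 0 but reached the 6.06 of all table cells of that library. The SFB-positive replicate 2 interval lay below the cluster 0 ratio of its library. In both SFB-negative libraries the interval held the cluster 0 ratio. The part of B-cell RNA in the Ly86 difference was not tested. Macrophage and monocyte markers summed to 4.24 and 8.12 CPM in SFB-positive and 51.7 and 5.26 CPM in SFB-negative libraries, which did not move with Ly86 within number 2.

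The barcodes with no UMI of the 6 B-lineage markers also had less Ly86 in both SFB-positive than in both SFB-negative libraries, on few UMIs. They held 1 and 7 Ly86 UMIs (2.75 and 1.40 CPM) in 242 and 760 barcodes of the SFB-positive libraries, against 3 and 16 UMIs (8.41 and 7.94 CPM) in 220 and 572 of the SFB-negative ones. Ly86 was then under the low-count filter and had no test, and this subset was chosen after seeing the data. Cd180, its receptor partner, gave 17 UMIs (1.97 CPM) in T-lineage-like barcodes of SFB-positive and 22 UMIs (5.78 CPM) of SFB-negative replicate 2, and no UMI in either replicate 1 library. The other members tested there did not differ by the test: Unc93b1 by -0.40 (95% interval -1.24 to 0.43), Myd88 by 0.37 (-0.28 to 1.02) and Tlr1 by 0.26 (-0.78 to 1.29), with the replicate number as a term.

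**Figure D4:**
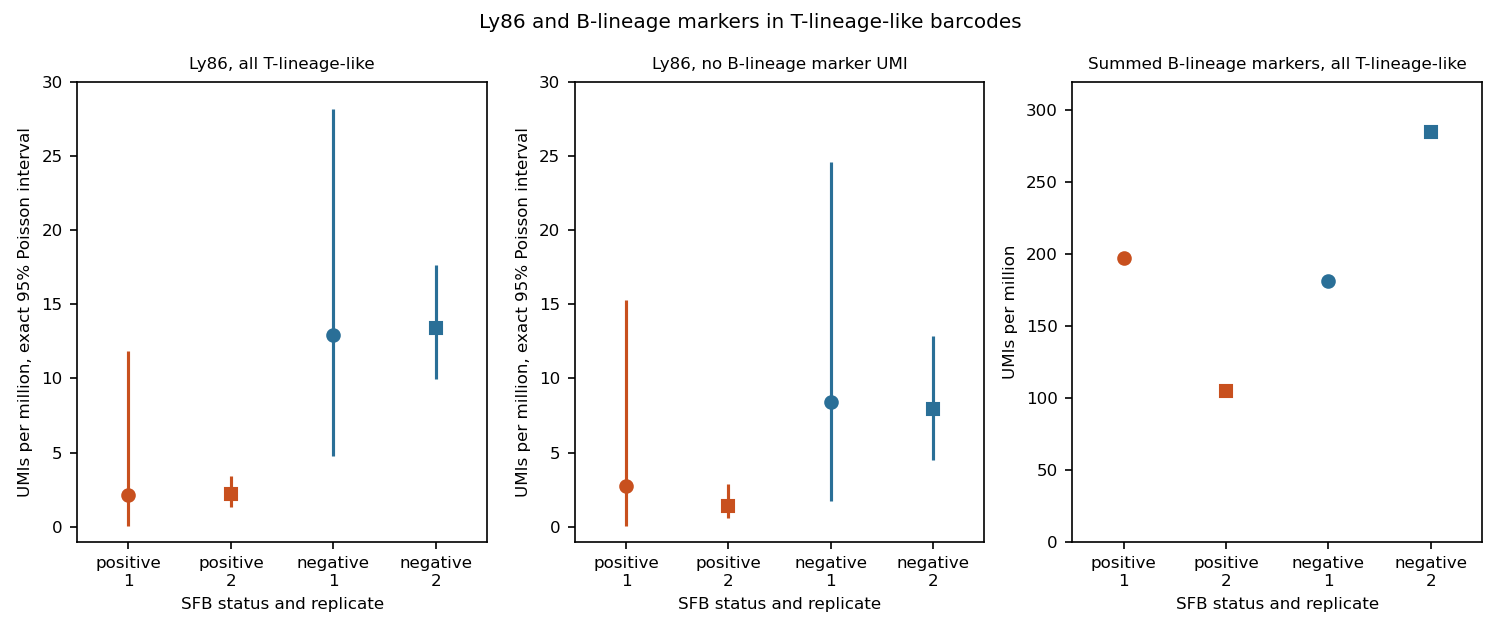
Ly86 in all T-lineage-like barcodes (left) and in those without a B-lineage marker UMI (middle), in CPM with exact 95% Poisson intervals, and the summed level of 6 B-lineage markers (right), by library. The SFB-positive libraries lie at 2.12 and 2.20 and the SFB-negative ones at 12.9 and 13.4 CPM in the left panel, while the marker sums overlap.

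Whether SFB status acted on a member differently in germinal-centre-like or memory-like cells than in naive-like ones was tested as an interaction, with the library as a term. Between cluster 3 and cluster 0 edgeR called 0 of 8 members, beside 0.0461% of all genes, and between cluster 4 and cluster 0 it called 0 of 7, beside 0.0703%. None of these members had an unadjusted p under 0.05. The difference of effects farthest from 0 was that of Ly96 in cluster 3, at -0.75 relative to cluster 0 (95% interval -1.67 to 0.17), and for Ly86 it was -0.22 in cluster 3 and -0.11 in cluster 4.

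A wider list of 41 genes of the same pathway covered the other receptors, ligand carriers, chaperones, proteases, transporters, adaptors, kinases and interferon regulatory factors; 26 to 33 of them passed the low-count filter in a class. Without the replicate number as a term, edgeR called 0 of them in every class, 1 of them had an unadjusted p under 0.05 (in cluster 0) and DESeq2 called 0. With it, 1 of 33 was lower in SFB-positive over all table cells, 1 of 31 in cluster 0 and 1 of 30 in cluster 1, none was higher, and clusters 2, 3 and 4 had no call. Of all genes, 3.61%, 2.16% and 0.981% were called in those 3 classes, so 1 call in each is near the background. All 3 calls were of Slc15a3, a transporter of histidine and small peptides in the endolysosomal membrane. It fell by 0.91 over all table cells (edgeR adjusted p = 0.00138), by 1.35 in cluster 0 (adjusted p = 4.08e-05) and by 1.01 in cluster 1 (adjusted p = 0.0463). On the fit's scale it stood at 11.8 and 11.1 in cluster 0 of SFB-positive libraries against 32.6 and 27.1 of SFB-negative ones. Its difference was -0.83 in cluster 2 (95% interval -1.39 to -0.27, edgeR adjusted p = 0.174), -0.30 in cluster 3 (-0.96 to 0.36) and -0.45 in cluster 4 (-1.13 to 0.22), which did not pass.

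Outside the table, 1 gene of the wider list was called lower in SFB-positive in each class with the replicate number as a term, and none higher. This was 1 of 30 in B-lineage-like barcodes, 1 of 26 in T-lineage-like ones and 1 of 31 over all, beside 5.17%, 2.74% and 3.25% of all genes called, again near the background. Irak3, an inhibitor of signalling downstream of MYD88, fell by 1.12 in B-lineage-like barcodes (edgeR adjusted p = 0.0440) and by 1.07 over all outside barcodes with under 10% mitochondrial UMIs (adjusted p = 0.0196). It stood at 7.45 and 37.8 in B-lineage-like barcodes of SFB-positive against 18.6 and 81.2 of SFB-negative libraries on the fit's scale, so the replicate numbers differed by more than the groups. In the table's cluster 0 its difference was 0.28 (95% interval -0.23 to 0.79). Ctsl, which encodes the protease cathepsin L, fell by 0.88 in T-lineage-like barcodes (edgeR adjusted p = 0.0405), at 31.0 and 28.7 in SFB-positive against 92.6 and 43.7 in SFB-negative libraries.

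The likeness between members was read over 25 points, each a cluster of 1 library with at least 20 cells. The log2(CPM + 1) of each gene was centred within its library before correlation. The points share libraries, depth and cell classes, so the correlations are given as descriptions. Ly86 and Unc93b1 ran together with r = 0.931, and Cd180 and Ly86 with r = 0.756. Tlr7 and Ly96 ran against each other with r = -0.680. The partner Ly96 and its receptor Tlr4 gave r = -0.108, and Unc93b1 gave r = 0.436 with Tlr7 and 0.117 with Tlr9. The 7777 genes with a mean of at least 10 CPM over the points were ranked. Those most like Ly86 were mt-Co2 (0.975), mt-Nd4 (0.963) and Lyn (0.962), a kinase of the B-cell receptor. Those most like Unc93b1 were Hs3st1 (0.962), Vasp (0.959) and Aff3 (0.953), and most like Cd180 were Nfe2l2 (0.922), Baz1a (0.920) and Tmem243 (0.919).

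Tlr7 was most like Btg3 (0.889), Ski (0.883) and Il6st (0.878) over the same points. Ly96 was most like Pon2 (0.865), Fut8 (0.833) and Gm2447 (0.827), and Tlr1 most like Plbd1 (0.872), Zfp984 (0.866) and Ifngr1 (0.855). For Myd88 these were Fyttd1 (0.960), Tmem11 (0.958) and Vbp1 (0.956). For the 3 members with few UMIs the nearest genes were Ndfip2 for Tlr4 (0.731), Rbm15 for Tlr9 (0.871) and Evi2a for Tlr2 (0.714).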

How the data were processed

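Raw UMI counts per gene and barcode for 4 libraries and a cell table with clusters and percent mitochondrial UMIs were used as deposited by the authors; the headers of the count matrices name Cell Ranger 6.0.0 (replicate 1) and 7.0.0 (replicate 2), and per the submitters' processing notes Cell Ranger 5.0.1 and mm10 were used. The table's other deposited columns hold labels and whole-number counts of UMIs and genes per cell, and 2 columns were not used here. How doublets were treated is not given in the sources used here, and none were removed here. The 10 genes, the wider list, the markers and the motifs were chosen with earlier results of these data known. The wider list's named genes are those past the adjusted limit in any fit.

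Barcodes of at least 500 UMIs outside the table with under 10% mitochondrial UMIs (6554) were clustered with scanpy 1.11.5 without the 10 genes. Clusters with at least 1000 CPM of T-lineage markers, other than an epithelial-like cluster and a cycling cluster with monocyte markers that also passed, were called T-lineage-like (16 clusters), a limit set after the data were seen. Summed UMI counts were tested with edgeR 4.0.16 in R 4.3.3 (TMM scaling, filterByExpr, at least 20 cells in every library) and, as an alternative, DESeq2 1.42.0; the fitting script was tested on simulated data. Shares of cells were taken at 500 UMIs per cell and, as an alternative, at 1000. Other alternatives were the replicate number as a term, no filter, a limit of 3000 genes per cell, each library left out, all outside barcodes and, added after seeing the data, T-lineage-like barcodes without a B-lineage marker UMI or without the 3 clusters with raised natural killer or type 1 innate lymphoid markers. The replicate number was used as a term because header, tags and depth went with it; the labels do not pair the libraries. Counting intervals cover counting error only.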

Additional observations from a re-analysis of the deposited data

How the results depend on the processing

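No member was called without the replicate number as a term under any setting run: DESeq2, no filter on low counts, at most 3000 genes per cell, all outside barcodes, no B-lineage marker UMI, no cluster with natural killer or type 1 innate lymphoid markers, or each library left out in turn (0 to 0 calls). With the replicate block, 1 member was called in T-lineage-like barcodes (Ly86, against 0 without it), also without those clusters, and the block changed no other member's call; all genes called per class went from 0 without it to 98 to 538 with it. The labels do not pair the libraries, and with 2 pairs the numbers are not shown to do so, but deviations of same-numbered libraries from their group means correlated over genes with r = 0.880 over all table cells, 0.750 to 0.869 in clusters 0 to 4, 0.576 in B-lineage-like and 0.767 in T-lineage-like barcodes. Ly86 in T-lineage-like barcodes was -2.66 without the filter and -2.75 and -2.77 without replicate 1 of the SFB-positive and SFB-negative group, with unadjusted edgeR p of 0.0233, 0.0390 and 0.0208; without either replicate 2 library it had too few UMIs to test. Of 624 differences recomputed under alternatives 105 changed sign, 83 of them when a library was left out, 6 of 64 with the block and 3 of 64 with DESeq2. Of 90 shares of cells, 11 moved by more than the spread between libraries at 1000 UMIs per cell and 79 without thinning, where depth sets the share. Depth limits Tlr2, Tlr4 and Tlr9 throughout, and also Tlr1, Tlr7 and Ly96 in the replicate 1 libraries.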

Other observations

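Outside barcodes with at least 10% mitochondrial UMIs entered only the alternative fits over all outside barcodes. They held Unc93b1 at 843 and 132 CPM in SFB-positive and 888 and 168 CPM in SFB-negative libraries.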
